A study of Homo sapiens with 6 samples.

Results

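The genes of the extracellular matrix, its integrin receptors and the junctions between cells were compared in HepG2 cells with and without fructosamine-3-kinase (FN3K), an enzyme that removes sugars bound to lysine residues of proteins. Members were chosen by gene symbol alone (collagens, laminins, integrins, syndecans, glypicans, cadherins, claudins, metalloproteases and their inhibitors, transforming growth factor beta (TGF-beta) genes and related names). The rule found 47 of 6357 assembled loci. HepG2 is an established human hepatoma line, and both groups were grown in Eagle's medium with fetal bovine serum: 3 plates of unedited cells (WT) and 3 plates of cells with FN3K knocked out by CRISPR (KO). The number of KO clones is not given in the sources used here, so the knockout and the history of a clone cannot be told apart, and p-values measure the spread between plates. Values are FPKM, fragments scaled by the length of the transcript and by the mapped fragments of the library, which are per length and so allow levels of different genes to be compared. No read counts stand behind them in the table, so the depth is unknown and no counting interval is given.

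The extracellular matrix is a network of collagens, laminins, fibronectin and proteoglycans that cells secrete and grip through integrins. In many epithelia a basement membrane of collagen IV, laminin, nidogen and perlecan lies under the cells. Cadherins and claudins join neighbouring cells into adherens and tight junctions. Metalloproteases cut these proteins, their tissue inhibitors (TIMPs) hold the proteases in check, and TGF-beta is a well known inducer of matrix genes.

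In FN3K KO cells the secreted, cell-binding proteins NPNT, SPARC and CTGF and the basement membrane chains COL4A5 and COL4A6 were lower, and so were the ligand TGFB1 and both TGF-beta receptor genes listed. E-cadherin (CDH1), 4 of 5 claudins, the inhibitors TIMP1 and TIMP2, the collagen crosslinker LOX and syndecan 1 (SDC1) were higher. Fibronectin (FN1), the most abundant member, and integrin beta 1 (ITGB1), the most abundant integrin, did not pass the test. Differences are given as log2 fold changes, KO against WT, on the log2(FPKM + 1) scale, which understates the change of genes with low FPKM. They were tested with limma over all loci with Benjamini-Hochberg adjustment, and a gene is called where the adjusted p was under 0.05. Of the 47 members, 15 were higher (31.9%, against 21.2% of all loci) and 19 lower (40.4%, against 36.5% of all loci). With a log2 fold change beyond 1 as well, 7 were higher (14.9%, against 4.25% of all loci) and 4 lower (8.51%, against 3.19%). The KO libraries all lay above the WT libraries in 17 members (23.6% of all loci) and all below them in 20 (39.8% of all loci). The median log2 fold change was -0.07 over the members and -0.14 over all loci, so a small negative value is near the shift of the whole table. Ballgown, the package named in the study's methods, enters a library-wide sum of expression as a covariate. That adjustment was run in an ordinary linear model, which does not share the spread across loci as limma does. Effects of the covariate and of the unshared spread on its calls cannot be told apart. In that model 9 members were higher (19.1%, against 9.53% of all loci in the same model) and 4 lower (8.51%, against 8.2%), so the lower share was that of all loci. The median of all loci was then -0.05. Past the fold limit, 7 were higher (3.7% of all loci) and 2 lower (1.56% of all loci). The 9 were ITGA2, SDC1 and the 7 higher members past the fold limit, and the 4 were SPARC, NPNT, SDC2 and CDH2. The other 22 called members kept their direction in that model but not their call, CTGF (-0.85, adjusted p = 0.078) and COL4A6 (-1.19, adjusted p = 0.32) included. They also held TGFB1, TGFBR1, TGFBR3, TIMP1 and CLDN1. Of these 22, 6 had a larger log2 fold change there, such as P4HA2 (0.81), GPC1 (0.72) and TGFBR1 (-0.78), and 10 a smaller one. In the remaining 6 it shrank by over 1.5 times: COL4A5 (-0.35), COL2A1 (0.28), COL9A3 (-0.24), LAMB2 (-0.12), PLOD3 (-0.25) and ITGA6 (-0.33).

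FN3K itself, the check of the labels, lay between 21.9 and 27.7 FPKM in WT and between 0.704 and 1.03 FPKM in KO libraries. Pearson correlations of log2(FPKM + 1) over the 47 members ran from 0.989 to 0.998 within groups and from 0.875 to 0.905 across groups; these are across genes, which are not independent. Of the 8 hepatocyte markers looked for, 7 are listed by name (albumin is not), and their summed level was 7821 to 7942 FPKM in WT and 14476 to 15705 FPKM in KO libraries. Of these 7, 5 were higher in KO cells, beside 21.2% of all loci. The largest differences were TTR (2.90, standard error 0.08, adjusted p = 2.4e-08) and AFP (2.01, standard error 0.11, adjusted p = 1.7e-06), both serum proteins of liver cells. SERPINA1 (0.08, standard error 0.09, adjusted p = 0.45) and TF (-0.03, standard error 0.09, adjusted p = 0.81) were not called. In the sum, AFP alone had 1554, 1527 and 1531 FPKM in WT and 6533, 5746 and 6337 FPKM in KO libraries. The part of this wider difference between the groups in the matrix and adhesion genes was not tested. None of 8 fibroblast or stellate cell markers and none of 4 endothelial markers is listed by name. Of 3 leukocyte markers, CD14 alone is listed, at 0.446 to 2.62 FPKM in WT and 13.1 to 16.1 FPKM in KO.

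**Figure D1:**
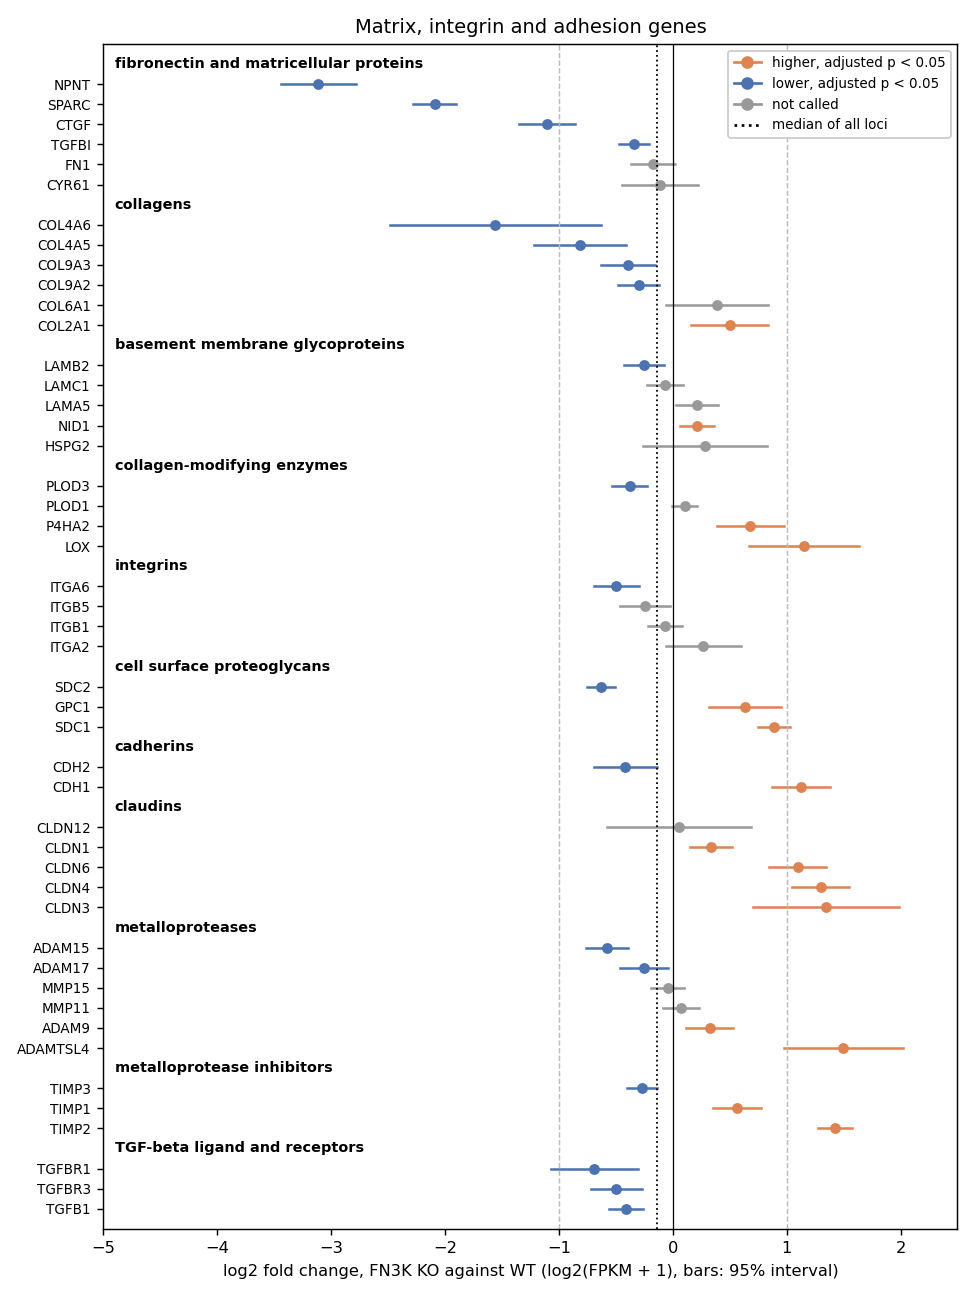
Log2 fold change of each of the 47 members, FN3K KO against WT on the log2(FPKM + 1) scale, by role. Points are limma estimates, bars their 95% intervals, colours the call at an adjusted p under 0.05, dashed lines mark -1 and 1, and the dotted line is the median of all loci (-0.14). All 5 claudins lie right of 0 (4 of them called higher), all 3 TGF-beta genes lie left of 0, and NPNT is the lowest at -3.11.

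Promoter sequences are shown for CTGF, since it holds a repeated motif, and for COL4A5, since it shares its promoter region with COL4A6 and both genes were lower. They are the bases before the transcript start in RefSeq (GRCh38.p14), from the strand of the gene, with bases inside coding-gene exons of GENCODE version 29 left out. Of the members, 39 matched the RefSeq table, with 55 start sites. In CTGF, capitals mark GGAATG, a motif chosen after its values were seen, the core bound by TEAD, the DNA-binding partner of the coactivators YAP and TAZ. COL4A5 and COL4A6 lie head to head on chromosome X with 346 bases between them in GENCODE, and capitals mark the 121 bases that also lie within 250 bases before a COL4A6 start.

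CTGF, chr6:131951374-131951622, minus strand: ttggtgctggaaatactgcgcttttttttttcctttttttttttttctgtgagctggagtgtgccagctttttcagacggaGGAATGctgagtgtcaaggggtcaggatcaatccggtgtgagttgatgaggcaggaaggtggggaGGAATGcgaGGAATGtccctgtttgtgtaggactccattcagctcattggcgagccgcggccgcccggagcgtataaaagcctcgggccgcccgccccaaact
COL4A5, chrX:108439588-108439837, plus strand: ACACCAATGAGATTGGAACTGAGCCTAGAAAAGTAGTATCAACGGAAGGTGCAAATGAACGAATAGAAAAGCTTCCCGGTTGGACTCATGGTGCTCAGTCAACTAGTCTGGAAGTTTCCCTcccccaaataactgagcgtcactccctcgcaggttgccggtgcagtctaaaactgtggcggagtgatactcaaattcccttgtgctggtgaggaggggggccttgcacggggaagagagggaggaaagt

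The CTGF window holds 3 matches, all in the forward direction, which begin 169, 104 and 95 bases before the start. On either strand (GGAATG or CATTCC), at least 1 match occurs in 11.9% of all 35116 RefSeq windows of 250 bases, and 3 or more occur in 0.0826% of them. Among the 39 member genes with a window, 5 hold a match in at least 1 of their windows. These matches describe letters and were not tested as binding sites.

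The fibronectin and matricellular group had 0 higher and 4 lower of 6 members, beside 21.2% and 36.5% of all loci. Its median log2 fold change was -0.72. NPNT, nephronectin, a matrix ligand of integrin alpha 8 beta 1, had 13.0, 12.5 and 11.9 FPKM in WT replicates 1, 2 and 3. In KO replicates 1, 2 and 3 it had 0.561, 0.631 and 0.489 FPKM. Its WT libraries lay far above the KO libraries with little spread in either group. On the log2 scale it was at -3.11 (standard error 0.14, adjusted p = 7.5e-07), the lowest of all members. SPARC, a collagen-binding glycoprotein that limits cell spreading, had 19.7, 19.5 and 18.6 FPKM in WT and 3.97, 3.83 and 3.49 FPKM in KO. That is -2.09 on the log2 scale (standard error 0.08, adjusted p = 3.0e-07), and the ratio of the group means was 5.12 for WT over KO. Both genes have exons on the same bases as exons of antisense genes, and the sources used here do not say whether the libraries kept strand, so reads of a gene and of its antisense partner cannot be told apart. The same holds for CTGF, CDH1, CDH2, ITGA6, P4HA2, ADAMTSL4 and TIMP2, and, with coding genes on the opposite strand, for COL9A3 (TCFL5) and ADAM17 (IAH1). In GRCh38 (GENCODE) NPNT lies on chromosome 4 from 105894775 to 106004027 on the plus strand, and SPARC on chromosome 5 from 151661096 to 151687165 on the minus strand.

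CTGF, connective tissue growth factor (chromosome 6 from 131948176 to 131951373, minus strand), had 203, 268 and 245 FPKM in WT and 114, 118 and 97.5 FPKM in KO libraries. The groups did not overlap, and the log2 fold change was -1.11 (standard error 0.11, adjusted p = 4.8e-05). CYR61, the related protein of the same family, had 12.6, 18.8 and 17.8 FPKM in WT and 12.7, 15.7 and 16.3 FPKM in KO libraries. Its groups overlapped, and its log2 fold change of -0.11 had a 95% interval from -0.45 to 0.22 (adjusted p = 0.52), and turned to 0.29 with the Ballgown adjustment. FN1, the main cell-binding glycoprotein of plasma and matrix, was the most abundant member, with 1068, 1054 and 1085 FPKM in WT and 947, 1035 and 865 FPKM in KO libraries. Every KO value lay under the WT values, but the difference of -0.18 (95% interval -0.37 to 0.02, adjusted p = 0.11) did not pass. Without KO replicate 2, the highest of the KO libraries, it was -0.24 and passed (adjusted p = 0.035). FN1 alone made up 39.5% to 41.9% of the summed FPKM of the members in each library. TGFBI, a TGF-beta induced protein that binds collagens and integrins, was lower, at 148 ± 7.24 FPKM in WT and 117 ± 4.38 FPKM in KO (SD, n = 3; log2 fold change -0.34, standard error 0.06, adjusted p = 0.0012).

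Of 6 collagens, 4 were lower and 1 higher, beside 36.5% and 21.2% of all loci. COL4A6 (chromosome X from 108155607 to 108439497, minus strand) encodes a chain of the basement membrane collagen IV and had 3.25, 2.92 and 2.61 FPKM in WT libraries. In KO libraries it was listed at 0 in replicate 1, at 1.34 FPKM in replicate 2 and at 0.00228 FPKM in replicate 3. The groups did not overlap, but the KO libraries spread widely, and the log2 fold change of -1.56 had a 95% interval from -2.49 to -0.63 (adjusted p = 0.010). With a pseudocount of 0.1 in place of 1 it was -3.62. Its neighbour COL4A5 (chromosome X from 108439844 to 108697545, plus strand), whose promoter is printed above, had 5.03, 7.74 and 7.35 FPKM in WT and 2.82, 3.99 and 3.21 FPKM in KO libraries. That difference was -0.82 (standard error 0.18, adjusted p = 0.0042), with all KO libraries under the WT libraries. COL9A3, a chain of a collagen that coats fibrils, was the most abundant collagen, with 95.3, 90.6 and 95.7 FPKM in WT and 60.6, 84.4 and 70.5 FPKM in KO libraries (log2 fold change -0.39, standard error 0.10, adjusted p = 0.011). COL9A2, a partner chain of the same collagen, was lower by a like amount (-0.30, standard error 0.08, adjusted p = 0.011). COL2A1, the fibrillar collagen known from cartilage, was the only one called higher, at 3.48 ± 0.401 FPKM in WT and 5.34 ± 0.725 FPKM in KO (SD, n = 3; 0.50, standard error 0.15, adjusted p = 0.018), and this call was lost without WT replicate 2 (adjusted p = 0.057) or KO replicate 1 (adjusted p = 0.077). COL6A1 was not called.

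Of 5 basement membrane glycoproteins, 1 was higher and 1 lower, beside 21.2% and 36.5% of all loci, and 3 were not called. LAMB2, the beta chain that pairs with LAMA5 and LAMC1 in a laminin of epithelial basement membranes, had 79.2, 82.8 and 82.6 FPKM in WT and 67.2, 76.7 and 61.9 FPKM in KO libraries (-0.25, standard error 0.08, adjusted p = 0.020). NID1, nidogen, which links laminin to collagen IV, was higher (0.22, standard error 0.07, adjusted p = 0.021). LAMA5 had 0.21 (95% interval 0.03 to 0.40, adjusted p = 0.051) and LAMC1 -0.07 (95% interval -0.22 to 0.09, adjusted p = 0.43), and neither was called, like HSPG2, perlecan. LAMA5 passed without KO replicate 1 (0.27, adjusted p = 0.041) and at a common 75th percentile of the libraries (0.26, adjusted p = 0.013), and was at 0.12 without KO replicate 2 (adjusted p = 0.12). It shares exon bases with ADRM1 on the opposite strand, which was higher (0.28, standard error 0.06, adjusted p = 0.0050). The LAMB2 call was lost without WT replicate 2 or 3 or KO replicate 1 or 3 (adjusted p up to 0.067), and the NID1 call without WT replicate 2 or 3 or KO replicate 1 or 2 (adjusted p up to 0.074).

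Among the enzymes that modify collagen, 2 of 4 were higher and 1 lower, beside 21.2% and 36.5% of all loci. LOX, lysyl oxidase (chromosome 5 from 122063195 to 122078360, minus strand), crosslinks collagen and elastin. It had 1.12, 1.08 and 1.17 FPKM in WT and 3.87, 4.05 and 3.28 FPKM in KO libraries. Its KO libraries were all higher, and the ratio of the group means was 3.33 (log2 fold change 1.15, standard error 0.21, adjusted p = 0.0018). P4HA2, a catalytic subunit of prolyl 4-hydroxylase, was higher as well (0.68, standard error 0.13, adjusted p = 0.0021). The lysyl hydroxylases differed in direction: PLOD3 was lower (-0.38, standard error 0.07, adjusted p = 0.0014), while PLOD1, the most abundant of these enzymes, had 47.9, 49.5 and 48.1 FPKM in WT and 51.6, 52.9 and 52.1 FPKM in KO libraries. PLOD1 did not pass (0.10, 95% interval -0.01 to 0.21, adjusted p = 0.093), although its groups did not overlap. The limit on strand given for SPARC holds here too, since LOX shares exon bases with SRFBP1 and PLOD3 with ZNHIT1, on opposite strands.

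Integrins are pairs of an alpha and a beta chain that bind matrix proteins. ITGB1, the beta chain shared by most collagen, laminin and fibronectin receptors, had 104, 114 and 112 FPKM in WT and 104, 113 and 98.0 FPKM in KO libraries. These groups overlapped, and the difference was -0.07 (95% interval -0.21 to 0.08, adjusted p = 0.42), which turned to 0.065 with the Ballgown adjustment. ITGA6, the alpha chain of laminin receptors, was the only integrin called among the members. It had 24.5, 27.5 and 27.7 FPKM in WT and 19.3, 20.1 and 16.3 FPKM in KO libraries (-0.50, standard error 0.09, adjusted p = 0.0015). ITGAV, an integrin alpha chain outside the name rule, was called higher (0.55, standard error 0.09, adjusted p = 0.0010). Its KO libraries all lay above the WT libraries. ITGB5 (-0.25, 95% interval -0.47 to -0.02, adjusted p = 0.057) and ITGA2, the alpha chain of a collagen receptor (0.27, 95% interval -0.06 to 0.60, adjusted p = 0.15), were not called. ITGB5 passed without WT replicate 1 (adjusted p = 0.028) or KO replicate 2 (adjusted p = 0.015).

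All 3 cell surface heparan sulfate proteoglycans were called, 2 higher and 1 lower, beside 21.2% and 36.5% of all loci. SDC2, syndecan 2, had 135, 145 and 138 FPKM in WT and 89.0, 93.1 and 86.9 FPKM in KO libraries, at -0.63 on the log2 scale (standard error 0.05, adjusted p = 2.3e-05). SDC1, syndecan 1, the main syndecan of epithelia, moved the other way, with 25.7, 25.8 and 26.1 FPKM in WT and 45.4, 52.4 and 48.8 FPKM in KO libraries (0.89, standard error 0.06, adjusted p = 7.5e-06). The lipid-anchored GPC1, glypican 1, was higher too, at 2.96 ± 0.325 FPKM in WT and 5.14 ± 0.243 FPKM in KO (SD, n = 3; 0.63, standard error 0.14, adjusted p = 0.0047).

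The cadherins, which hold neighbouring cells together at adherens junctions, went in opposite directions. CDH1, E-cadherin, the cadherin of epithelia (chromosome 16 from 68737225 to 68835548, plus strand), had 3.57, 3.99 and 3.58 FPKM in WT and 10.2, 9.21 and 8.52 FPKM in KO libraries. The groups were well apart, at 1.13 on the log2 scale (standard error 0.11, adjusted p = 5.0e-05). CDH2, N-cadherin, which hepatocytes also carry, had 10.3, 8.99 and 7.89 FPKM in WT and 7.32, 5.77 and 6.51 FPKM in KO libraries. Its groups lay close together (-0.42, standard error 0.12, adjusted p = 0.017), and the call was lost without WT replicate 1 (adjusted p = 0.055), WT replicate 2 (adjusted p = 0.050) or KO replicate 2 (adjusted p = 0.059).

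Claudins form the seal of tight junctions, and 4 of 5 were higher and 0 lower, beside 21.2% and 36.5% of all loci. Their median log2 fold change was 1.10. CLDN4 (chromosome 7 from 73799542 to 73832693, plus strand) had 9.79, 11.3 and 11.1 FPKM in WT and 24.4, 33.2 and 26.3 FPKM in KO libraries (1.30, standard error 0.11, adjusted p = 2.3e-05). CLDN3 lies next to it on the minus strand (from 73768997 to 73770270), with 29271 bases between them. It had 0.500, 0.410 and 0.717 FPKM in WT and 3.13, 2.83 and 2.76 FPKM in KO libraries (1.35, standard error 0.28, adjusted p = 0.0036). At such a WT level the pseudocount of 1 holds the fold down: the ratio of the group means was 5.36, against 2.61 for CLDN4. The groups did not overlap in either gene.

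CLDN6, a claudin of embryonic epithelia that many tumours express (chromosome 16 from 3014712 to 3020071, minus strand), had 18.0, 18.9 and 22.7 FPKM in WT and 37.5, 45.0 and 48.3 FPKM in KO libraries (1.10, standard error 0.11, adjusted p = 5.4e-05). It shares exon bases with TNFRSF12A on the opposite strand, which had a mean of 88.2 FPKM in WT and 117 FPKM in KO (0.41, standard error 0.13, adjusted p = 0.024), and the part of those reads was not tested. CLDN1, the most abundant claudin, had 46.0, 56.0 and 56.7 FPKM in WT and 65.6, 65.9 and 68.7 FPKM in KO libraries (0.33, standard error 0.08, adjusted p = 0.0070). CLDN12 was not called: its values of 5.20, 2.67 and 3.45 FPKM in WT and 5.31, 4.44 and 2.29 FPKM in KO libraries overlapped throughout.

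Of 6 loci in the metalloprotease group, 2 were higher and 2 lower, beside 21.2% and 36.5% of all loci, and 2 were not called. ADAMTSL4, which resembles these proteases but lacks the protease domain and binds fibrillin fibres (chromosome 1 from 150549369 to 150560937, plus strand), had 1.05, 1.51 and 2.78 FPKM in WT and 6.32, 7.29 and 6.21 FPKM in KO libraries. All its KO values were above the WT values, of which replicate 3 was the highest, and the log2 fold change of 1.50 (standard error 0.23, adjusted p = 6.4e-04) was the highest of all members. MMP15, a membrane-bound protease and the most abundant of the group, had 51.8, 49.8 and 54.2 FPKM in WT and 47.8, 54.1 and 49.2 FPKM in KO libraries, with overlapping groups and a difference of -0.04 (95% interval -0.19 to 0.10, adjusted p = 0.57), which turned to 0.048 with the Ballgown adjustment. MMP11, a secreted protease, was not called either (0.07, 95% interval -0.09 to 0.23, adjusted p = 0.41). Its exon bases overlap those of CHCHD10 on the opposite strand, which was lower (-0.83, standard error 0.08, adjusted p = 3.1e-05). Of the membrane-bound shedding enzymes, ADAM9 was higher (0.32, standard error 0.09, adjusted p = 0.014), a call lost without KO replicate 1 (adjusted p = 0.052), and ADAM15, which shares exon bases with DCST1 on the same strand, was lower (-0.58, standard error 0.08, adjusted p = 3.9e-04). ADAM17, which releases tumour necrosis factor, was the other lower gene (-0.25, standard error 0.09, adjusted p = 0.044). Its call was lost when any library but KO replicate 2 was left out (adjusted p up to 0.13).

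All 3 inhibitors of metalloproteases were called, 2 higher and 1 lower, beside 21.2% and 36.5% of all loci. TIMP2 (chromosome 17 from 78852977 to 78925387, minus strand) had 14.1, 13.1 and 15.1 FPKM in WT and 38.9, 40.5 and 39.6 FPKM in KO libraries, a narrow spread around a 2.81-fold ratio of means (log2 fold change 1.43, standard error 0.07, adjusted p = 7.3e-07). TIMP2 shares exon bases with CEP295NL on its own strand, which knowing the strand would not resolve. TIMP1 was higher as well (0.56, standard error 0.09, adjusted p = 9.9e-04). TIMP3, the inhibitor that binds to the matrix and the most abundant of the 3 in WT, had 39.5, 43.7 and 41.4 FPKM in WT and 34.2, 35.3 and 33.1 FPKM in KO libraries (-0.27, standard error 0.06, adjusted p = 0.0040). Summed over the 3 genes, the level was 70.0 to 75.5 FPKM in WT and 99.0 to 102 FPKM in KO libraries.

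The 3 TGF-beta genes were all lower, beside 36.5% of all loci. With the Ballgown adjustment none of these calls held (adjusted p = 0.14 for TGFB1, 0.23 for TGFBR1 and 0.26 for TGFBR3). The ligand TGFB1 had 36.3, 34.2 and 38.1 FPKM in WT and 25.2, 28.1 and 27.8 FPKM in KO libraries (-0.41, standard error 0.07, adjusted p = 9.3e-04). TGFBR1, the kinase receptor, fell from 7.26 ± 0.851 to 4.17 ± 1.04 FPKM (SD, n = 3; -0.69, standard error 0.17, adjusted p = 0.0074). The co-receptor TGFBR3, betaglycan, fell from 26.0 ± 1.68 to 18.3 ± 2.64 FPKM (SD, n = 3; -0.49, standard error 0.10, adjusted p = 0.0027). In each of the 3 genes the KO libraries all lay under the WT libraries, as in 39.8% of all loci. TGFB1 shares exon bases with HNRNPUL1 on the opposite strand, which was lower as well (-0.18, standard error 0.06, adjusted p = 0.024), and the part of those reads was not tested.

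Ratios of related genes within a library do not depend on how libraries are scaled. The pairs below were chosen after their values were seen, so they are a description with no test. CDH1 over CDH2 ran from 0.347 to 0.454 in WT and from 1.31 to 1.60 in KO libraries, so the more abundant of the 2 was CDH2 in every WT library and CDH1 in every KO library. TIMP2 over TIMP3 ran from 0.301 to 0.366 in WT and from 1.14 to 1.20 in KO libraries, and here too the order turned. SDC1 over SDC2 ran from 0.177 to 0.190 in WT and from 0.510 to 0.563 in KO libraries, and SDC2 stayed the more abundant. CTGF over CYR61 ran from 13.8 to 16.2 in WT and from 5.97 to 8.97 in KO libraries. LAMB2 over LAMA5, chains of one laminin, ran from 3.74 to 3.95 in WT and from 2.63 to 2.92 in KO libraries. COL9A3 over COL9A2, chains of one collagen, ran from 8.77 to 9.23 in WT and from 7.83 to 9.75 in KO libraries, where the groups overlapped.

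**Figure D2:**
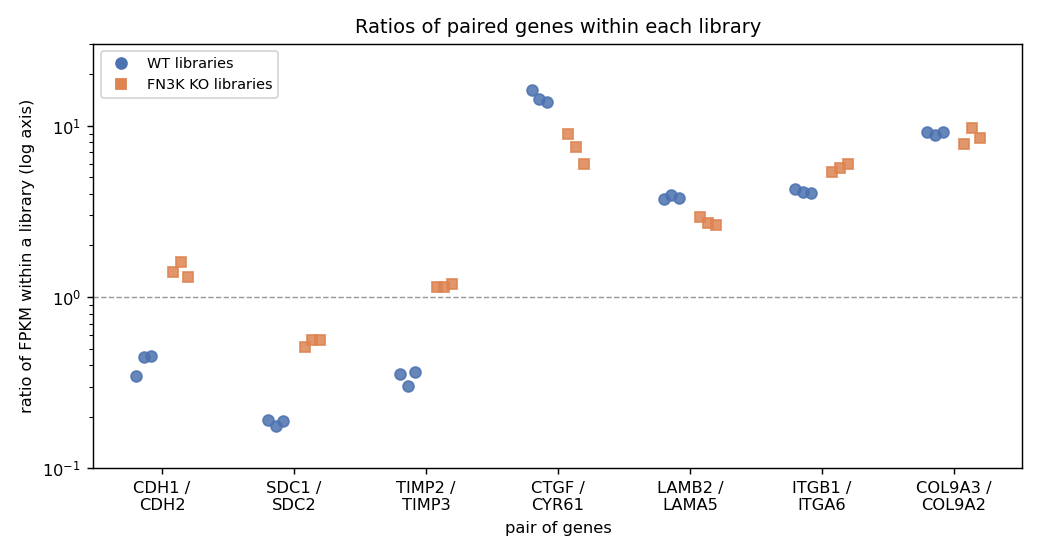
Ratio of the FPKM of paired genes within each of the 3 WT and 3 FN3K KO libraries, on a log axis; each point is a library and the dashed line marks equal levels. CDH1 over CDH2 and TIMP2 over TIMP3 lie below 1 in WT and above 1 in KO libraries, while COL9A3 over COL9A2 overlaps.

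Genes that work with these members were taken from 6 lists written from general knowledge, and 99 of their genes that are not members are listed by name. Of these, 30 were higher and 35 lower, with a median of -0.15, beside 21.2% and 36.5% of all loci. Focal adhesion genes, which tie integrins to actin, were higher in 10 and lower in 5 of 20, at a median of 0.21. With the Ballgown adjustment, 7 were higher and 0 lower (9.53% and 8.2% of all loci). LASP1, an actin-binding protein and the most abundant of them, had 51.1, 46.3 and 51.7 FPKM in WT and 84.9, 88.3 and 82.0 FPKM in KO libraries (0.76, standard error 0.06, adjusted p = 1.4e-05). TNS4, a tensin of focal adhesions, was the only one past a log2 fold change of 1, at 0.271, 0.637 and 0.597 FPKM in WT and 1.46, 3.05 and 2.55 FPKM in KO libraries (1.14, standard error 0.35, adjusted p = 0.022). Its fold is set in part by the pseudocount at these levels.

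Cell junction genes were higher in 3 and lower in 5 of 13, with a median of -0.26, beside 21.2% and 36.5% of all loci. With the Ballgown adjustment, 1 was higher and 1 lower (9.53% and 8.2% of all loci). CTNNB1, beta-catenin, which binds the tail of cadherins, was the most abundant and was lower (-0.28, standard error 0.09, adjusted p = 0.021). EPCAM, an epithelial adhesion molecule, had 112, 116 and 119 FPKM in WT and 36.1, 33.1 and 35.1 FPKM in KO libraries (-1.71, standard error 0.05, adjusted p = 7.8e-08). EPCAM and the other lower genes of this list thus moved against CDH1 and the 4 called claudins, while the 3 higher ones moved with them.

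Matrix proteins outside the name rule were higher in 5 and lower in 5 of 18, beside 21.2% and 36.5% of all loci. With the Ballgown adjustment, 3 were higher and 2 lower (9.53% and 8.2% of all loci). The secreted galectins LGALS1 (1.59, standard error 0.08, adjusted p = 1.0e-06) and LGALS3 (1.79, standard error 0.13, adjusted p = 7.1e-06), which bind sugars on glycoproteins, were higher. SPP1, osteopontin, an integrin ligand, had 75.8, 81.3 and 81.4 FPKM in WT and 19.2, 21.7 and 20.8 FPKM in KO libraries (-1.90, standard error 0.06, adjusted p = 8.8e-08). The growth factor binding proteins differed: IGFBP1 was lower (-2.20, standard error 0.14, adjusted p = 4.8e-06) and IGFBP2, listed at 0 in WT replicate 1, was higher (1.54, standard error 0.35, adjusted p = 0.0053). AHSG, fetuin A, was the most abundant of this list and was not called (-0.15, standard error 0.10, adjusted p = 0.24).

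Of 15 collagen processing genes, 6 were higher and 6 lower, beside 21.2% and 36.5% of all loci. With the Ballgown adjustment, 3 were higher and 3 lower (9.53% and 8.2% of all loci). PCOLCE and PCOLCE2, which enhance the cutting of procollagen, were the highest, with PCOLCE at 12.9, 12.9 and 13.7 FPKM in WT and 52.4, 51.8 and 56.8 FPKM in KO libraries (1.95, standard error 0.06, adjusted p = 6.8e-08). PCOLCE2 had 1.85 (standard error 0.10, adjusted p = 1.7e-06). HSP90B1, the endoplasmic reticulum chaperone that folds integrins among other clients, had 640, 705 and 708 FPKM in WT and 282, 273 and 262 FPKM in KO libraries (-1.32, standard error 0.07, adjusted p = 1.2e-06). COLGALT2, a collagen galactosyltransferase at 2.15 to 2.52 FPKM in WT, was lower (-1.62, standard error 0.37, adjusted p = 0.0055). P4HB, the shared subunit of prolyl 4-hydroxylase, was the most abundant of the list and was not called (-0.05, standard error 0.07, adjusted p = 0.53). Heparan and chondroitin sulfate synthesis had 1 higher and 3 lower of 11, beside the same 21.2% and 36.5% of all loci. With the Ballgown adjustment, 1 was higher and 1 lower (9.53% and 8.2% of all loci). HS6ST1, a sulfotransferase, was the most abundant of the 11 and was lower (-0.52, standard error 0.08, adjusted p = 7.6e-04).

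TGF-beta and YAP response genes were higher in 5 and lower in 11 of 22, with a median of -0.40, beside 21.2% and 36.5% of all loci. With the Ballgown adjustment, 4 were higher and 1 lower, beside 9.53% and 8.2% of all loci. ANKRD1, like CTGF a gene commonly used as a readout of YAP, had 6.76, 11.1 and 13.4 FPKM in WT and 25.2, 25.3 and 27.6 FPKM in KO libraries (1.29, standard error 0.19, adjusted p = 5.2e-04). It rose while CTGF fell and CYR61 was not called. ID1, a target of bone morphogenetic protein signals, was the most abundant of the list and was higher (0.47, standard error 0.06, adjusted p = 1.8e-04).

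**Figure D3:**
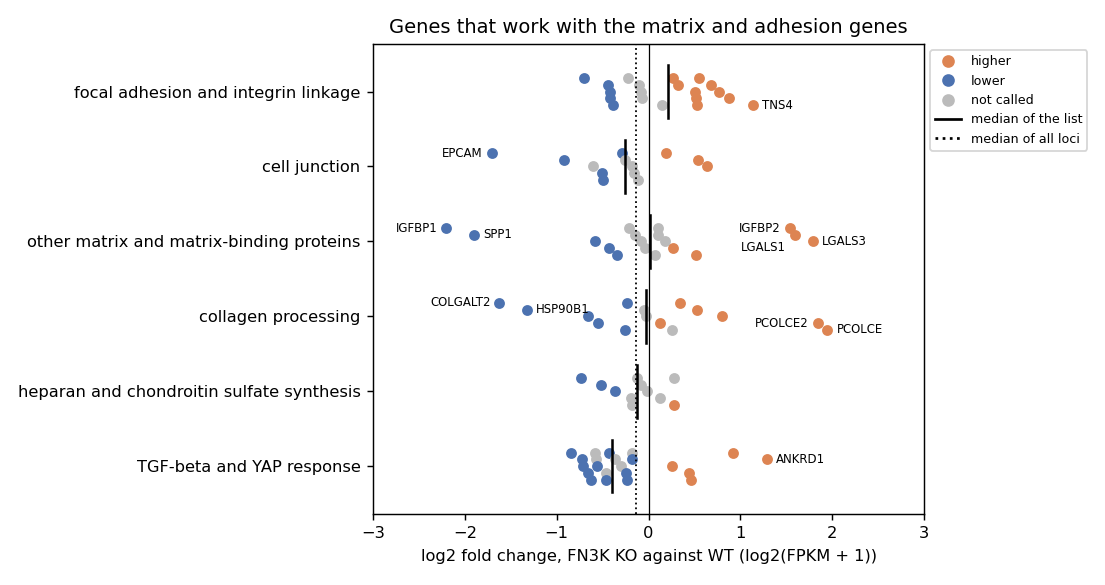
Log2 fold change, FN3K KO against WT on the log2(FPKM + 1) scale, of the listed genes of 6 related lists. Each point is a gene, coloured by its call at an adjusted p under 0.05, genes beyond 1 are named, black bars are list medians and the dotted line is the median of all loci (-0.14). The medians run from -0.40 for TGF-beta and YAP response to 0.21 for focal adhesion.

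An exact permutation test over 3 against 3 libraries cannot go below a two-sided p of 0.10, the value it gives wherever the groups do not overlap.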

How the data were processed

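RNA from 3 WT and 3 FN3K KO plates of HepG2 cells was sequenced after oligo(dT) capture. Per the labels and the study's methods, the authors mapped reads with HISAT2 to GRCh38.p5, assembled and quantified transcripts with StringTie 2.0.6 and deposited FPKM per locus (6357 loci). The rule by which loci were kept is not given in the sources used here. FPKM were taken as deposited, and log2(FPKM + 1) was compared with limma 3.58.1 in R 4.3.3 (lmFit, eBayes with a variance trend), with Benjamini-Hochberg adjustment over all loci. The fit was tested on simulated data. Each locus was placed by its transcript identifier in GENCODE version 29 (GRCh38), or by symbol for 1 of the 47 members. For 21 members an exon overlaps an exon of another gene. Members, lists and alternatives were chosen with earlier results of these data known. FPKM of every library are given for members past both limits and for the most abundant member of each role. Up to 3 others per role follow by mean FPKM. Related genes are named where past both limits or most abundant, and ITGAV is named as an integrin outside the name rule. Protein sequences were not analysed here. Tables were made with Python 3.11.15, pandas 2.3.3 and numpy 2.4.6.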

Additional observations from a re-analysis of the deposited data

How the results depend on the processing

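The model with the Ballgown library adjustment does not share the spread across loci as limma does, and leaves fewer degrees of freedom. With it, 9 members were higher and 4 lower (9.53% and 8.2% of all loci), with 2 lower past the fold limit. The members' median log2 fold change was 0.048, and related genes were higher in 19 and lower in 8. Over all loci, 53.8% of calls were then higher, against 36.7% in limma. That adjustment turned the direction of CYR61 (0.29), LAMC1 (0.045), ITGB1 (0.065), ITGB5 (0.021), CLDN12 (-0.28) and MMP15 (0.048), none of which was called. A common 75th percentile turned MMP15 (0.0022). A common median, chosen after seeing the data, turned LAMC1 (0.0031), ITGB1 (0.0045) and MMP15 (0.025). CLDN12 ranged from -0.14 to 0.33 when each library was left out. The cause was not tested. Leaving out each library gave 13 to 15 members higher and 16 to 20 lower, and 7 higher and 4 lower past the fold limit throughout. The members' median then ran from -0.12 to -0.02. The lower pseudocount (0.1), a filter at 1 FPKM on the mean, either common scaling and no variance trend gave 14 to 18 higher and 16 to 19 lower. Deviations of same-numbered WT and KO libraries correlated at 0.0096, 0.0061 and 0.0458, so the numbers do not pair them. With the replicate block, 16 were higher and 19 lower: ADAM17 was lost, and LAMA5 and ITGB5 (adjusted p = 0.023) were gained. Depth is unknown, so levels near 0 have no stated limit.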

Other observations

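The 47 members together made up 0.849% to 0.922% of the summed FPKM in WT libraries and 0.697% to 0.848% in KO libraries. Summed by role, claudins stood at 79.5 to 94.7 FPKM in WT and 136 to 151 FPKM in KO libraries, and the TGF-beta ligand and receptors at 66.9 to 70.9 FPKM in WT and 46.5 to 52.4 FPKM in KO libraries. The summed level of the 5 basement membrane glycoproteins overlapped between the groups, at 182 to 187 FPKM in WT and 168 to 202 FPKM in KO libraries. These sums are values with no test.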
